A study of Homo sapiens with 6 samples.

Results

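The collagen genes of HEK293 cells were examined after the cells had been grown beside neighbours that release reactive oxygen species (ROS). HEK293 is an established human embryonic kidney line, and the RNA-seq libraries came from cells carrying green fluorescent protein (GFP) that were collected by fluorescence-activated cell sorting. The co-culture group held 3 libraries from GFP+ HEK293 cells kept for 10 h with HEK293 cells that carried DAAO (D-amino acid oxidase, which makes hydrogen peroxide from D-amino acids) at 25 µM D-alanine. The control group held 3 libraries from sorted GFP+ HEK293 cells titled as wild type, whose treatment label reads control. The same protocol text stands beside both groups, so whether the controls received D-alanine or had partner cells beside them is not stated, and neither clones nor culture dates are given. Nothing in the labels says that the libraries came from separate cultures, so p-values measure only the spread between these libraries.

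Members were the gene rows with a symbol of the form COL, a number, A and a number, and with at least 10 reads in at least 3 libraries. Of 23686 genes in the files, 44 had such a symbol and 35 were members: 9 fibrillar, 7 basement membrane and 19 other collagens. At the threshold, COL8A1 and COL6A5 were just inside, with at least 10 reads in 3 libraries each, and COL16A1 was just outside, with at least 10 in 2. Of the 35, 29 had at least 10 reads in all 6 libraries. The other 6 (COL5A3, COL6A5, COL6A6, COL8A1, COL8A2 and COL17A1) reached it in 3 to 5, and none reached it in the libraries of a single group only. After the low-count filter of the test, 33 members were tested and COL6A5 and COL8A1 were not.

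Collagens are secreted proteins built from chains that wind around each other in a helix of repeated glycine-containing triplets. Fibrillar chains pack into fibrils, the type IV chains form the sheet-like network of basement membranes, and the fibril-associated collagens link fibrils to their surroundings. In the kidney the chains of COL4A1 and COL4A2 occur in basement membranes generally, while those of COL4A3, COL4A4 and COL4A5 form the mature filter of the glomerulus. Each of the type IV genes lies head to head with a partner, so that both are read outward from a shared stretch of DNA.

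The shared stretches beside COL4A1 and COL4A3 are shown because these genes rose. The upstream bases of COL12A1 and COL7A1 are shown because these were the genes outside type IV that rose. Bases of the remaining type IV pair, COL4A6 and COL4A5, are printed beside them, though neither gene passed the threshold. Sequences are from RefSeq on GRCh38.p14, a different build from the hg18 named in the submitters' processing notes. Capitals mark CCAAT, the motif of NF-Y, or GGGCGG, known from the Sp1 factors, or TATAAA, the common core promoter motif, or TGANTCA, known from AP-1. Each was searched on both strands, so that a match to the other strand shows as the reverse complement. The first lies at chr13:110307158-110307283, written on the plus strand from the COL4A1 start to the COL4A2 start, 126 bases apart. The next lies at chr2:227164489-227164623, plus strand, where 135 bases separate the outermost COL4A4 start from that of COL4A3. The third holds the 250 bases before COL4A5 at chrX:108439588-108439837, plus strand, out of 379 between it and COL4A6. The 250 bases before COL12A1 (chr6:75206054-75206303) and before COL7A1 (chr3:48595330-48595579) are on the minus strand.
COL4A1-COL4A2: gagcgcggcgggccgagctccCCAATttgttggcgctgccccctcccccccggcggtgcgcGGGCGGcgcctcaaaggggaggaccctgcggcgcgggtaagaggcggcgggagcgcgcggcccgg
COL4A4-COL4A3: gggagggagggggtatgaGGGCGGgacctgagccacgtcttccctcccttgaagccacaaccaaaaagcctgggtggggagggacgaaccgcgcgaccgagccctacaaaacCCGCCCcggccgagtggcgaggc
COL4A6-COL4A5: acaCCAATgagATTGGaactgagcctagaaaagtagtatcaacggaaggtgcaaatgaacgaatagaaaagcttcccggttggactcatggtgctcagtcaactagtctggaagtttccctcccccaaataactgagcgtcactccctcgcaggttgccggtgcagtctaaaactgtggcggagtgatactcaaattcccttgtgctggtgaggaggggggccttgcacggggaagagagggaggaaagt
COL12A1: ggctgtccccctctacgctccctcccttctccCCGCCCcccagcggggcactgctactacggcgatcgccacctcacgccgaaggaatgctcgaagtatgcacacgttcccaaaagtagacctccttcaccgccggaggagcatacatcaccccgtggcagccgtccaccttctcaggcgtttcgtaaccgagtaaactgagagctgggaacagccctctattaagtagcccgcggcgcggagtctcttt
COL7A1: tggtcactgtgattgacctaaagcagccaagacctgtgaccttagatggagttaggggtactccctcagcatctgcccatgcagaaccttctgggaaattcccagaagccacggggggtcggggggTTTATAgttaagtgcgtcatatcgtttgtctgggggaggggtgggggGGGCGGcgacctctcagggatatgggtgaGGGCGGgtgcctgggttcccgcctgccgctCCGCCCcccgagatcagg

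The printed stretches differ in their marked letters, and that of the COL4A6-COL4A5 pair covers only part of its gap. The COL4A1-COL4A2 stretch holds 1 CCAAT and 1 GGGCGG, the COL4A4-COL4A3 stretch 2 GGGCGG, and the bases before COL4A5 hold 2 CCAAT and 0 GGGCGG. COL12A1 has 1 GGGCGG, and COL7A1 has 3 GGGCGG and 1 TATAAA. Promoters were matched for 25 of the 35 members. Both genes of each type IV pair are among them, so a match in a shared stretch can count for both. For the COL4A4-COL4A3 pair it did not. The window counted for COL4A3 held 2 GGGCGG and that for COL4A4 held 0. In the 250 bases before the start, GGGCGG was found in 15 of the 25 (60.0%) and in 42.3% of all 27305 promoters, and CCAAT in 6 of the 25 and in 33.04% of all. TATAAA was found in 5 of the 25, against 11.1% of all. TGANTCA was found in 0 of the 25 and in 6.60% of all, which says only that these letters are not in this window. In the printed stretches no match overlaps another, and all counts describe letters, not binding.

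Before the results, some facts of the libraries. They held 19091085 to 36250314 gene-assigned reads, so that 1 read is 0.0276 to 0.0524 CPM, the usual read count scaled to library size. Reads on the unexpected strand were a median 0.124% and 0.211% in co-culture libraries 2 and 3 and 1.57% to 1.76% in the other 4, so the low class of this strand share held no control. A fit with a batch term for strand class therefore compares co-culture library 1 with the 3 controls. Control 1 stood apart among the controls, as described below for the collagens. The genes PAX2, LHX1, EYA1, NEFM and NEFL, known in HEK293, were all at 1 CPM or more in every library. Of 8 fibroblast and mesenchymal markers, 4 (PDGFRB, THY1, DCN and FAP) were under 1 CPM in every library. The other 4 (PDGFRA, LUM, TWIST1 and TWIST2) were at 1 CPM or more in every library. The summed level of the 8 was 27.8 to 31.5 CPM in co-culture and 33.7 to 37.7 in the controls. Among them LUM was lower in co-culture, with 6.49 ± 1.00 against 10.3 ± 1.17 CPM (SD, n = 3 each, adjusted p 0.0293 by edgeR). All 4 endothelial markers and 3 of 4 blood markers stayed under 1 CPM, and DAO had 0 reads in all 6 libraries, which allows at most 0.0828 to 0.157 CPM of a transcript with the human sequence (counting error only). The part of the LUM level in the collagen results was not tested.

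The most abundant collagen genes of these cells came from every class. Levels are compared between genes as CPM per kilobase of the gene's principal transcript. COL4A2 was highest, at 42.7 to 57.3 CPM per kilobase over the 6 libraries, and overlapped no other member. COL6A1, a chain of the beaded filaments of type VI collagen, ranged from 23.5 to 38.9, and COL4A1 from 23.3 to 33.7. COL2A1, the chain of cartilage type II collagen, ranged from 17.9 to 29.5 and COL6A2 from 15.8 to 31.3. COL14A1 ranged from 16.04 to 23.4 and COL4A5 from 18.1 to 19.9. Neighbours among these 6 overlapped in range and cannot be ordered beyond their spread. Below them COL4A6 (10.1 to 12.8), COL12A1 (6.39 to 10.8), COL25A1 (7.45 to 10.01) and COL18A1 (group means 10.4 and 10.3) formed another overlapping set. The lowest members, COL8A1, COL8A2, COL5A3, COL17A1, COL6A5 and COL6A6, had group means between 0.0392 and 0.148 CPM per kilobase. As a share of the group mean of summed collagen CPM, the 7 basement membrane members made up 51.7% in the controls and 55.5% in co-culture. The fibrillar members made up 14.6% and 13.1%, and the others 33.6% and 31.4%. The basement membrane sum was 861, 741 and 795 CPM in controls 1, 2 and 3. It was 861, 943 and 953 CPM in co-culture libraries 1, 2 and 3, so the groups overlapped. The differences in share were not tested.

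**Figure D1:**
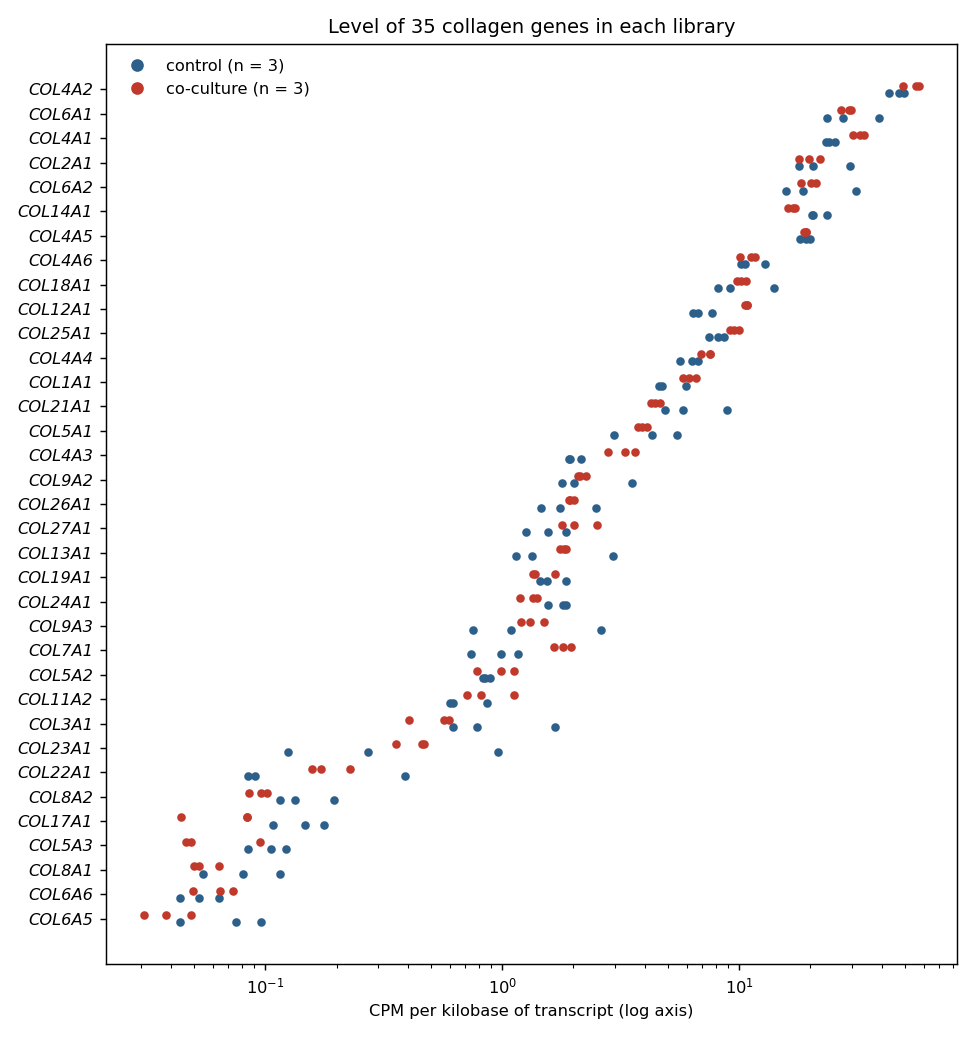
Level of the 35 collagen genes in each of the 6 libraries, as CPM per kilobase of principal transcript on a log axis; each point is a library, blue for the 3 controls and red for the 3 co-culture libraries. COL4A2 lies highest at 42.7 to 57.3, and for most genes the blue and red points overlap.

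Several chains were present without a partner that they are known to join. COL1A1, the main chain of type I collagen, stood at 5.11 CPM per kilobase in the controls and 6.19 in co-culture, while COL1A2, the other chain of that collagen, had 0, 0 and 1 reads in co-culture libraries 1, 2 and 3 and 2, 0 and 2 in controls 1, 2 and 3. COL6A3, the largest chain of type VI, had 2 to 9 reads in each library beside 1230 to 4394 for COL6A1 and COL6A2. In type IX, a fibril-associated cartilage collagen, COL9A1 had 1 to 6 reads, whereas COL9A2 had 110 to 215 and COL9A3 had 49 to 129. COL11A1 had 1 read in all 6 libraries together, and COL11A2, its partner in type XI, had 74 to 188. In bulk libraries, fewer cells making a transcript and less of it per cell cannot be told apart. The other symbols outside the member rule were COL10A1, COL15A1, COL16A1, COL20A1 and COL28A1, with at most 17 reads in any library.

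Between the groups, 4 collagen genes rose in co-culture (COL4A1, COL4A3, COL7A1 and COL12A1) and 1 fell (COL14A1). These are 5 of 33 tested members, or 15.2%, where 704 of 14582 tested genes, or 4.83%, had an adjusted p under 0.05 in edgeR's quasi-likelihood test with Benjamini-Hochberg adjustment. By direction the background was 2.66% higher and 2.17% lower. With total counts in place of trimmed means the whole-table split was 310 higher and 572 lower, against 388 and 316, and the collagen split stayed at 4 and 1. The median log2 fold change of the 33 was -0.02 and that of all genes was -0.0022, with 15 members above 0 and 18 below. By class, 2 of 7 basement membrane members were called (both higher), 0 of 9 fibrillar members, and 3 of 17 others (2 higher, 1 lower). In the fibrillar class 4 of the 9 had an unadjusted p under 0.05, 2 in each direction, where 23.2% of all genes did. DESeq2 called 1 of them (COL3A1, adjusted p 0.0428), with 7.08% of all genes called. The groups did not overlap for 12 of the 33, or 36.4%, against 29.3% of all genes.

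**Figure D2:**
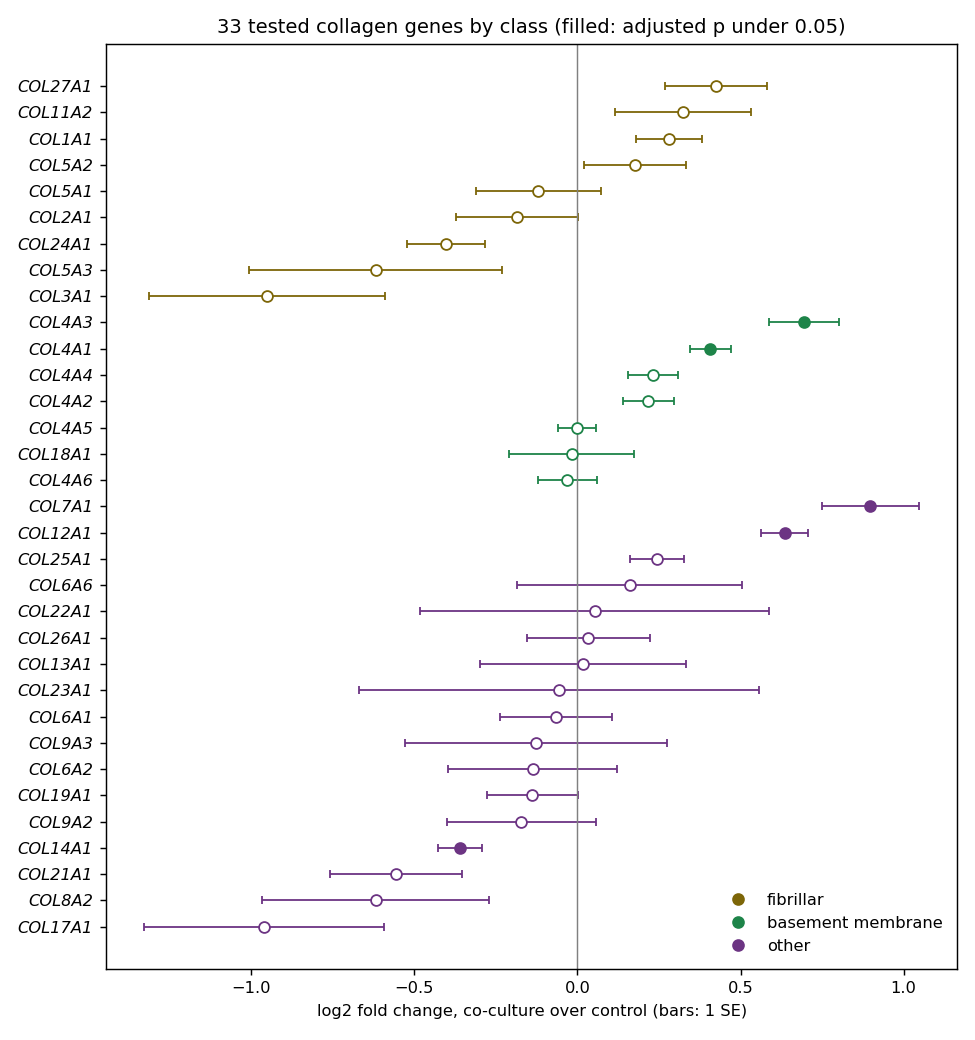
Log2 fold change of co-culture over control (x axis) for the 33 tested collagen genes, grouped by class; bars are 1 standard error and filled points have an edgeR adjusted p under 0.05. The filled points are COL4A1, COL4A3, COL7A1 and COL12A1 on the right and COL14A1 on the left.

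Leaving out single libraries changed the number of calls, while COL12A1 was called each time (adjusted p 1.46e-05 to 0.0207 by edgeR). Without control 1 the count was 16 of 34 tested members (13 higher, 3 lower), or 47.1%, against 20.8% of all genes, and the 5 genes were among them. Without control 2 it was 1 (COL12A1), or 3.03%, against 0.44% of all genes, and without co-culture library 2 it was 1 (COL12A1), or 2.94%, against 0.503%. Without co-culture library 1 it was 2 (COL4A1 and COL12A1), or 5.88%, against 0.831%, and without co-culture library 3 it was 4, or 11.8%, against 2.18%. Over these 6 fits the log2 fold change ran from 0.37 to 0.45 for COL4A1, from 0.61 to 0.80 for COL4A3, from 0.75 to 1.04 for COL7A1 and from -0.40 to -0.29 for COL14A1. With a batch term for strand class edgeR called 0 members. In that fit 8 of 33 members, or 24.2%, had an unadjusted p under 0.05, against 12.5% of all genes, and the 5 genes were among the 8. Their log2 fold changes there were 0.32 for COL4A1, 0.73 for COL4A3, 0.91 for COL7A1, 0.62 for COL12A1 and -0.35 for COL14A1, with adjusted p-values in edgeR's test of 0.228, 0.155, 0.181, 0.0717 and 0.267.

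COL12A1, a fibril-associated collagen with interrupted helices (a FACIT) that binds to type I fibrils, showed the clearest change. It stood at 78.3, 74.9 and 89.8 CPM in controls 1, 2 and 3 and at 125, 126 and 127 CPM in co-culture libraries 1, 2 and 3. All co-culture libraries lay above all controls and close to each other. The log2 fold change was 0.64 (SE 0.07, adjusted p 0.00143 in edgeR's test), a 1.55-fold rise. The call held in 13 of 14 other fits, with log2 fold changes from 0.58 to 0.72, and was missed in the batch-term fit.

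COL14A1, a FACIT of the same architecture that also coats fibrils, went the other way. Its level was 152, 132 and 133 CPM in the controls and 109, 104 and 111 CPM in co-culture. Every co-culture library was below every control, and control 1 was highest. The log2 fold change was -0.36 (SE 0.07, adjusted p 0.0176 in edgeR's test), and over 14 other fits it ran from -0.40 to -0.29, with the call held in 8. With the replicate number as a block its adjusted p was 0.0551. As a description chosen after the values were seen, the reads of COL12A1 over those of COL14A1, a ratio within each library that does not depend on scaling, were 1.14, 1.22 and 1.14 in co-culture and 0.517, 0.569 and 0.675 in the controls.

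COL7A1, the chain of the anchoring fibrils that tie epithelial basement membrane to the tissue beneath, had the largest fold among the called members. It stood at 10.8, 6.89 and 9.13 CPM in controls 1, 2 and 3 and at 16.8, 18.2 and 15.3 CPM in co-culture libraries 1, 2 and 3. The groups were apart, with control 1 nearest to the co-culture range. The log2 fold change was 0.90 (SE 0.15, adjusted p 0.0101 in edgeR's test), a 1.86-fold rise to a level that is still low per length, from 0.964 to 1.81 CPM per kilobase. It kept its call in 10 of 14 other fits, where the log2 fold change ran from 0.75 to 1.04.

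In the type IV family, COL4A1 rose and its head-to-head partner COL4A2 did not pass. COL4A1, a chain of the common basement membrane network, stood at 159, 154 and 167 CPM in the controls and at 200, 215 and 223 CPM in co-culture. No co-culture library reached down to the controls. The log2 fold change was 0.41 (SE 0.06, adjusted p 0.00719 in edgeR's test), or 1.33-fold, and the call held in 11 of 14 other fits. COL4A2, which joins COL4A1 in that network, had 322, 277 and 308 CPM in the controls and 320, 363 and 372 CPM in co-culture. Control 1 and co-culture library 1 were nearly level there, so the groups overlapped, and the log2 fold change was 0.22 (SE 0.08, adjusted p 0.128 in edgeR's test). COL4A2 passed only without control 1 (0.26, adjusted p 0.0137 by edgeR, against 0.0137 to 0.783 over the 14 fits). The reads of COL4A1 per read of COL4A2 were 0.624, 0.592 and 0.599 in co-culture and 0.494, 0.556 and 0.543 in the controls. This ratio was higher in every co-culture library than in every control, and the difference was not tested.

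In the glomerular pair, at a lower level, COL4A3 rose and COL4A4 did not pass. COL4A3 stood at 17.4, 15.4 and 15.7 CPM in the controls and at 26.8, 29.4 and 22.5 CPM in co-culture. Its controls were tight and co-culture library 3 was the lowest of its group, still above them. The log2 fold change was 0.69 (SE 0.11, adjusted p 0.00719 in edgeR's test), or 1.62-fold, with the call held in 10 of 14 other fits. COL4A4, its head-to-head partner, had 67.5, 56.2 and 63.5 CPM in the controls and 68.9, 75.3 and 75.6 CPM in co-culture. The groups were apart by a narrow margin, and the log2 fold change of 0.23 (SE 0.08, adjusted p 0.105 in edgeR's test) passed only without control 1 (0.29, adjusted p 0.00522 by edgeR, against 0.00522 to 0.635 over the 14 fits). The reads of COL4A3 per read of COL4A4 were 0.389, 0.391 and 0.298 in co-culture and 0.258, 0.275 and 0.246 in the controls, without overlap, and this difference too was not tested.

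The X-linked pair had overlapping groups. COL4A5, which joins either the glomerular or the smooth-muscle type network, stood at 128, 117 and 123 CPM in the controls and at 121, 124 and 123 CPM in co-culture, with a log2 fold change of -0.0010 (SE 0.06). COL4A6 stood at 84.2, 67.1 and 69.6 CPM in the controls and at 66.2, 73.4 and 76.3 CPM in co-culture, with a log2 fold change of -0.03 (SE 0.09). Their adjusted p-values in edgeR's test were 0.993 and 0.870, and neither passed in any of the 14 other fits. Summed over the 6 type IV genes, the level was 778, 687 and 747 CPM in the controls and 802, 879 and 892 CPM in co-culture. COL18A1, a basement membrane proteoglycan whose end fragment is endostatin, had 82.9, 54.2 and 48.0 CPM in the controls and 58.2, 63.6 and 60.6 CPM in co-culture. Control 1 was the highest library and controls 2 and 3 were the lowest, so its log2 fold change was -0.02 (SE 0.19, adjusted p 0.967 in edgeR's test) with control 1 and 0.25 (adjusted p 0.0131 by edgeR) without it.

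**Figure D3:**
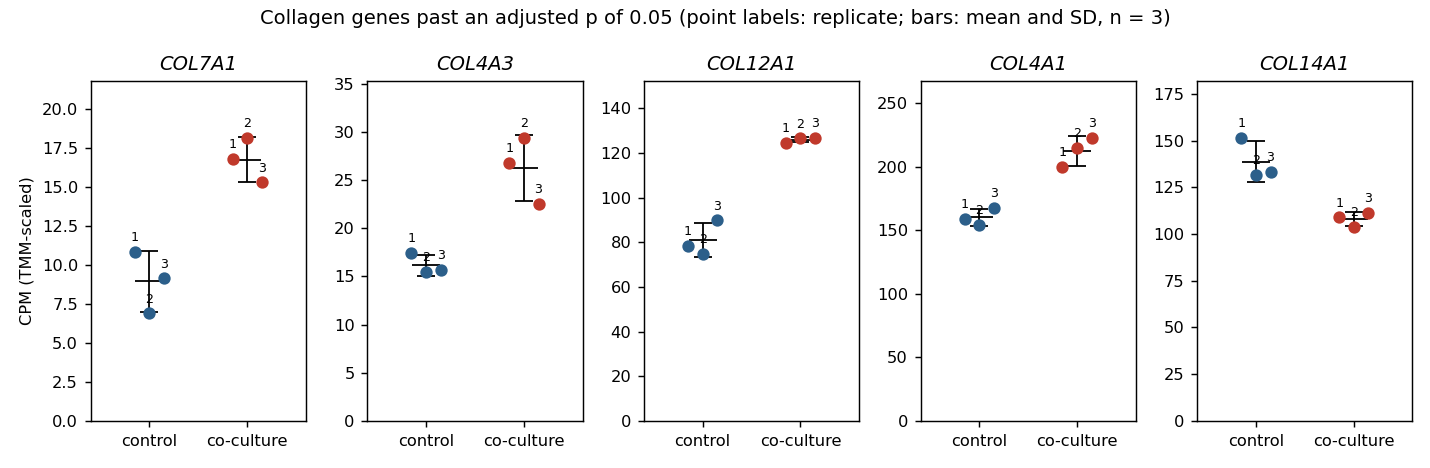
CPM of the 5 called collagen genes in each library (y axes start at 0); numbers beside points are replicate numbers, and bars give the mean and SD of 3 libraries. COL7A1, COL4A3, COL12A1 and COL4A1 lie higher in all 3 co-culture libraries than in all 3 controls, and COL14A1 lies lower.

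The next members by unadjusted p were COL24A1, COL4A4 and COL25A1. COL24A1, a minor fibrillar chain, had 12.4, 12.7 and 10.7 CPM in the controls and 8.16, 9.55 and 9.22 CPM in co-culture. The groups did not overlap, and the log2 fold change was -0.40 (SE 0.12, adjusted p 0.0750 in edgeR's test). COL25A1, a transmembrane collagen of neurons, had 23.5, 22.2 and 20.3 CPM in the controls and 27.3, 25.8 and 25.0 CPM in co-culture. Again the groups were apart, and the log2 fold change was 0.24 (SE 0.08, adjusted p 0.112 in edgeR's test). Both passed without control 1, with log2 fold changes of -0.37 and 0.29 (adjusted p 0.0322 and 0.0166 by edgeR).

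Among the fibrillar chains none passed the threshold with all libraries in edgeR's test. COL2A1 had 150, 104 and 90.7 CPM in the controls and 90.8, 100.1 and 111 CPM in co-culture. All co-culture libraries lay within the range of the controls, whose highest was control 1, and the log2 fold change was -0.19 (SE 0.19, adjusted p 0.600 in edgeR's test). COL1A1 had 40.2, 31.8 and 31.0 CPM against 41.2, 39.2 and 44.4, a log2 fold change of 0.28 (SE 0.10, adjusted p 0.131 in edgeR's test). Without control 1 it was 0.41 (adjusted p 0.000860 by edgeR, against 0.000860 to 0.511 over the 14 fits). COL3A1, which mixes with type I in soft tissue, was low, at 9.30, 4.33 and 3.45 CPM in the controls and 3.30, 2.23 and 3.16 CPM in co-culture. Its control mean rested on control 1, and the log2 fold change moved from -0.95 (SE 0.36, adjusted p 0.159 in edgeR's test) to -0.40 (adjusted p 0.154 by edgeR) without that library. COL27A1, a cartilage fibrillar chain, had a log2 fold change of 0.43 (adjusted p 0.138 by edgeR). The remaining fibrillar members COL5A1, COL5A2, COL5A3 and COL11A2 had log2 fold changes of -0.12, 0.18, -0.62 and 0.32, with adjusted p-values in edgeR's test from 0.367 to 0.749. COL5A1, which sets fibril width together with COL5A2, was the third most abundant of the class per kilobase, at 2.96 to 5.45.

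Control 1 was the highest library for COL6A1, COL6A2, COL21A1 and COL13A1. COL6A1 had 165, 116 and 99.5 CPM in the controls against 114, 126 and 123 in co-culture, and COL6A2, its neighbour on the chromosome, 108, 64.2 and 54.7 against 63.2, 73.1 and 69.6. In both, control 1 was the highest library and control 3 the lowest. With all libraries the log2 fold change was -0.07 for COL6A1 (SE 0.17, adjusted p 0.854 in edgeR's test) and -0.14 for COL6A2 (SE 0.26, adjusted p 0.796). Without control 1 it was 0.17 and 0.21 (adjusted p 0.0801 and 0.0627 in edgeR's test). COL21A1, a FACIT, had 38.7, 25.0 and 21.2 CPM against 19.1, 20.1 and 18.4, a log2 fold change of -0.56 (SE 0.20, adjusted p 0.153 in edgeR's test). It was -0.27 without control 1 (adjusted p 0.0417 by edgeR, against 0.0256 to 0.504 over the 14 fits). COL13A1, a transmembrane collagen of the muscle synapse, had 9.35, 4.28 and 3.64 CPM in the controls and 5.80, 5.94 and 5.59 CPM in co-culture. Its log2 fold change was 0.02 with control 1 and 0.55 without it (adjusted p 0.983 and 0.0154 by edgeR).

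Over the 33 tested members, 20 (60.6%) had their highest level in control 1, where 24.5% of all tested genes did. Control 1 was at least 1.5 times the mean of controls 2 and 3 for 14 of the 33 (42.4%) and for 7.96% of all genes. The largest such ratios were 4.81 for COL23A1, 4.46 for COL22A1, 2.84 for COL9A3, 2.39 for COL3A1 and 2.36 for COL13A1. Among the called members the ratio was 0.951 for COL12A1, 0.990 for COL4A1, 1.12 for COL4A3, 1.14 for COL14A1 and 1.35 for COL7A1, and all 5 kept their calls without that library. Summed over the 35 members, control 1 held 1774 CPM, controls 2 and 3 held 1411 and 1449, and the co-culture libraries held 1570, 1693 and 1704. Control 1 held 6.84% multimapping reads and 1.64% unexpected-strand reads, within the range of the other controls for strand and above their 6.48% and 6.70% for multimapping. Their part in the pattern was not tested.

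**Figure D4:**
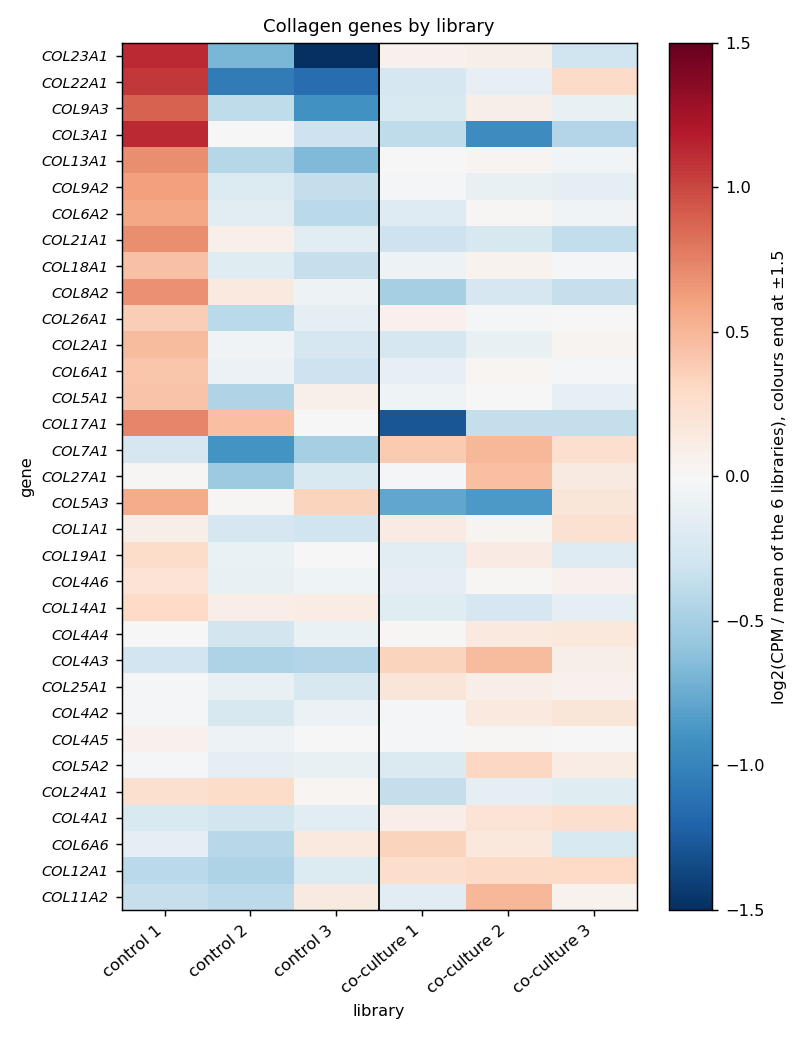
Level of each tested collagen gene in each library as log2 of CPM over the gene's mean of the 6 libraries (colour, ending at ±1.5); columns are the 3 controls and the 3 co-culture libraries, rows are ordered by control 1 over the mean of controls 2 and 3. The upper rows, from COL23A1 (ratio 4.81) downward, are red in control 1, and COL4A1 and COL12A1 near the bottom are red in the co-culture columns.

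Besides the 5 called with all libraries, 11 members passed without control 1, of which 9 were higher and 2 lower. They included, beside those given above, COL27A1 (0.56), COL22A1 (1.14) and COL23A1 (1.13), with adjusted p-values in edgeR's test of 0.0228, 0.0238 and 0.0310. COL22A1 and COL23A1 are low, with 11 to 52 and 10 to 58 reads in each library. In the fit with all libraries COL22A1 stood at 0.05 and COL23A1 at -0.06, and the sign of COL23A1 was the same in 9 of 14 other fits.

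Of the remaining members, COL17A1, the transmembrane collagen of hemidesmosomes, was low, at 1.01, 0.835 and 0.614 CPM in the controls and 0.250, 0.475 and 0.475 CPM in co-culture. The groups were apart, with co-culture library 1 the lowest, and the log2 fold change was -0.96 (SE 0.37, adjusted p 0.147 in edgeR's test). COL8A2, a short-chain collagen of the cornea's basement layer, was also lower in every co-culture library, at 0.400 to 0.475 CPM against 0.537 to 0.910 (log2 fold change -0.62, adjusted p 0.314 in edgeR's test). The FACIT members COL9A2, COL9A3 and COL19A1 had log2 fold changes of -0.17, -0.13 and -0.14, COL26A1 had 0.03 and COL6A6 had 0.16. All 5 had overlapping groups. COL6A5 and COL8A1, which were not tested, stood at 0.285 to 0.447 and 0.285 to 0.363 CPM in co-culture and at 0.404 to 0.887 and 0.313 to 0.657 CPM in the controls.

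**Figure D5:**
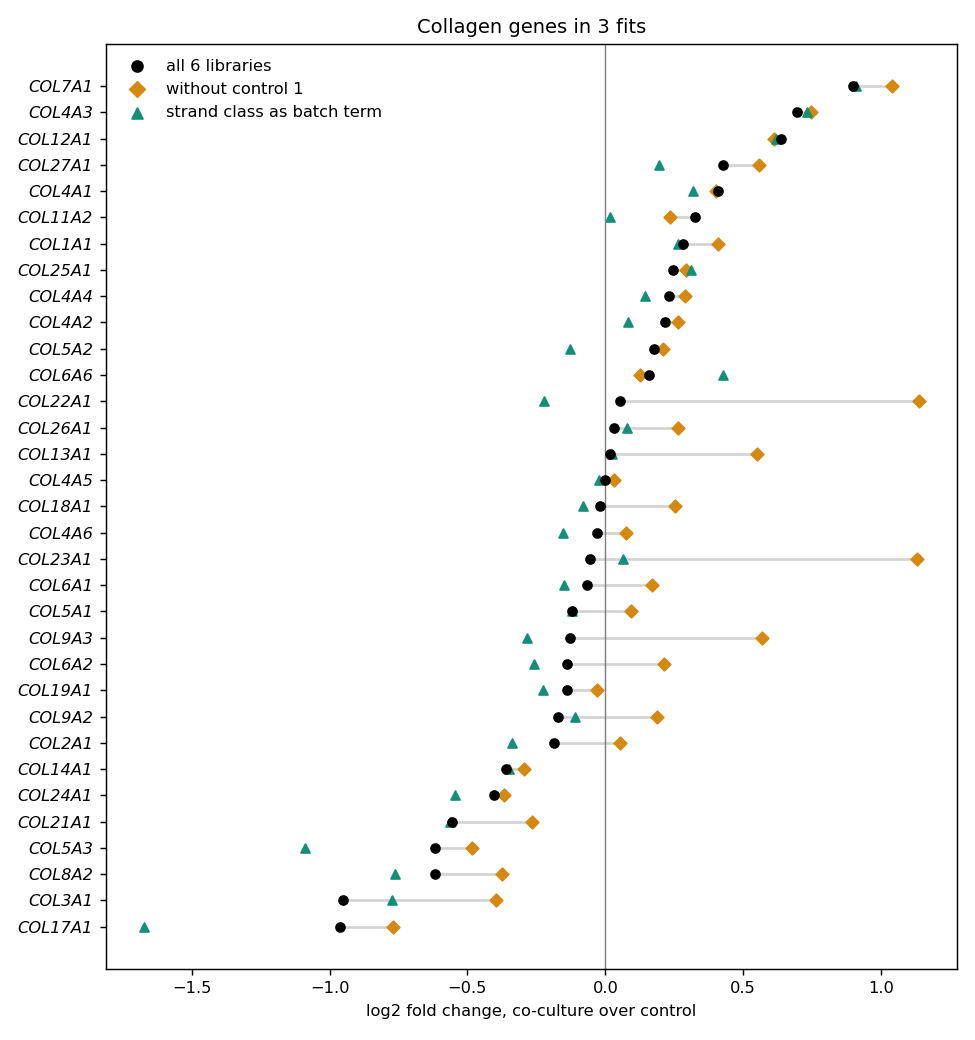
Log2 fold change (x axis) of the 33 tested collagen genes with all 6 libraries (black), without control 1 (orange) and with a batch term for strand class (green). COL12A1 and COL4A3 keep nearly the same place in all 3 fits, while COL22A1 and COL23A1 move from near 0 to over 1 without control 1.

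The enzymes and partners that collagens need were read out as a list of 69 genes, of which 64 were tested. Of these 3 rose and 0 fell, or 4.69%, close to the 4.83% of all genes. The median log2 fold change was 0.07, with 43 above 0 and 21 below. Among 18 folding and modification genes, 2 rose. PLOD2, a lysyl hydroxylase that prepares collagen ends for cross-linking, had 160, 147 and 131 CPM in the controls and 245, 237 and 223 CPM in co-culture. The groups were well apart, and the log2 fold change was 0.69 (SE 0.08, adjusted p 0.00143 in edgeR's test), with the call held in all 14 other fits (highest adjusted p 0.0404). P4HA2, a catalytic subunit of prolyl hydroxylase, which makes the helix stable at body temperature, had 64.5, 56.0 and 49.3 CPM against 72.8, 71.9 and 79.0. Its log2 fold change was 0.40 (SE 0.09, adjusted p 0.0359 in edgeR's test). The collagen chaperone SERPINH1 and the cyclophilin PPIB had log2 fold changes of -0.0043 and 0.01.

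LAMB1, a laminin chain of basement membrane, was the list's other gene past the threshold, at 236, 222 and 228 CPM in the controls and 269, 273 and 271 in co-culture (log2 fold change 0.24, SE 0.06, adjusted p 0.0348 by edgeR). It stood above all controls in every co-culture library. None of the 6 export genes tested, 13 trimming and cross-linking genes, 7 receptors and 10 breakdown genes and inhibitors passed in edgeR's test, while 9 of those 36 had an unadjusted p under 0.05, a share near the 23.2% of all genes, and DESeq2 called TIMP1 (adjusted p 0.0338). LOX, the enzyme that starts cross-links, had 54.2, 27.4 and 21.2 CPM in the controls and 67.4, 67.6 and 68.1 CPM in co-culture. Its groups did not overlap, and the log2 fold change was 0.99 (SE 0.36, adjusted p 0.186 in edgeR's test) with control 1 and 1.49 without it (adjusted p 8.10e-08 by edgeR). LOX did not pass with all libraries and was not picked by a rule set beforehand. Control 1 was its control nearest to co-culture, so the p-value without that library is no support for a rise. Leaving out control 1 gave 22 called genes in the list (34.4%), 21 of them higher, where 20.8% of all genes were called, 1558 higher and 1511 lower. P4HA2 and LAMB1 lost their calls with a batch term for strand class (0.36 and 0.23, adjusted p 0.337 and 0.320 by edgeR). The list's count was 1 without any single co-culture library or without control 2, PLOD2 being called in each.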

How the data were processed

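RNA from 6 samples was extracted with TriPure, and a strand-specific Illumina kit for mRNA was used, as the labels' protocols give. The authors deposited raw read counts per gene, 1 file a sample, in STAR's gene count layout. STAR 2.53a, FastQC and hg18 are named in the submitters' processing notes, and the annotation release is not given in the sources used here. The reverse-strand count column was used, and 4 summary lines were left out (unmapped 1.22% to 1.67%, multimapping 6.48% to 8.42%, no gene 14.8% to 17.7%, ambiguous 0.835% to 1.01%). Multimapping reads are not counted, so near-identical copies would be undercounted.

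Groups came from titles. Libraries of a group differed by a chi-square per degree of freedom of 4.73 to 18.5, above counting error, so none was the same library counted again. Repeat preparations of 1 culture were not tested for. The fit used edgeR 4.0.16 (R 4.3.3) on the whole table: filterByExpr at a minimum count of 10 (14582 of 23686 genes), TMM scaling, robust quasi-likelihood F test with group as the only term, Benjamini-Hochberg adjustment over all genes and a threshold of 0.05. SE is the absolute log2 fold change over the square root of F, and CPM is TMM-scaled. Lengths are of the longest principal transcript in GENCODE 29. DESeq2 1.42.0, limma 3.58.1 (voom) and the other alternatives refitted the same comparison. The fit was tested on simulated data.

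The members, classes and lists were chosen with earlier results of these data known. All members could be named, with full values for those under the threshold, the next by unadjusted p up to 8 in all, and the 5 highest per kilobase. Of the 69 pathway genes, 6 were matched through an older symbol. The marker lists for HEK293, fibroblast, endothelial, blood and partner cells are reported beside the libraries, except for 1 marker that is not reported here.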

Additional observations from a re-analysis of the deposited data

How the results depend on the processing

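Counts of calls moved most with single libraries. Leaving out 1 library at a time, the collagen count ran from 1 (without control 2, and without co-culture library 2) to 16 (without control 1), the pathway list from 1 to 22, and all genes from 65 to 3069. With a batch term for strand class the collagen count was 0 in edgeR (8 at an unadjusted p under 0.05), the pathway count 1 and the count of all genes 29. With the replicate block the collagen count was 4, the pathway count 1 and the count of all genes 164. Samples with the same number did not deviate together (correlations of deviations across genes of -0.04, -0.09 and -0.09). This cannot show whether they were cultured or prepared together, and the labels do not say. DESeq2 gave 6 pathway genes, 7 collagen genes and 1032 of all genes (7.08%), and no adjusted p for COL5A3, COL6A6, COL8A2 and COL17A1. The collagen count was 5 with size factors, total counts, unstranded counts, no low-count filter, limma-voom or at least 50 reads in 3 libraries (27 members). Leaving out 1 library at a time, COL18A1 ran from -0.17 (without control 3) to 0.25 (without control 1) and COL23A1 from -0.56 to 1.13, and both passed without control 1. The 5 called collagen genes kept their direction in all 14 other fits. The cause of these shifts was not tested.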

Other observations

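Reads on the forward strand, which were left out of the comparison, were few over most collagen genes but made up 98.3% of those over COL10A1. There the 6 libraries together held 57 forward and 1 reverse reads. Forward reads over COL10A1 numbered 4, 11 and 20 in co-culture libraries 1, 2 and 3 and 3, 13 and 6 in controls 1, 2 and 3, so the groups overlapped. Forward reads were 15.6% over COL9A3 and 8.25% over COL18A1. Unstranded counting took COL18A1 from 8604 to 9376 reads over the 6 libraries and COL9A3 from 486 to 494. COL20A1, a FACIT outside the member rule, had 6, 9 and 15 reads in co-culture and 4, 2 and 4 in the controls and was too low to test.

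Within the type VI family the reads of COL6A1 per read of COL6A2 were 1.81, 1.72 and 1.76 in co-culture and 1.52, 1.81 and 1.82 in controls 1, 2 and 3. Control 1 was the lowest of the 6, so the excess in that library was larger for COL6A2 than for COL6A1. MRC2 is a receptor that takes up collagen for breakdown, and HSPG2 is the basement membrane proteoglycan perlecan. Both were chosen for mention after the values were seen. In both, control 1 lay near the co-culture libraries, and controls 2 and 3 lay well below. MRC2 had 60.8, 35.7 and 35.6 CPM in controls 1, 2 and 3 and 57.6, 60.3 and 60.2 CPM in co-culture. HSPG2 had 50.8, 28.9 and 28.4 CPM in the controls and 45.2, 46.5 and 46.7 CPM in co-culture. With all libraries the log2 fold changes of MRC2 and HSPG2 were 0.44 and 0.36 (edgeR adjusted p 0.262 and 0.391). Leaving out control 1, the highest library of both, gave 0.74 and 0.69 (edgeR adjusted p 5.60e-07 and 2.39e-06). Because both genes were picked after control 1 was seen to lie apart, these p-values without it are no support for a rise.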
